A study of Mus musculus with 4 samples.

Results

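Galectins, S100 proteins, annexin A2, vimentin and the scaffold protein Ahnak are often high together in B-1, memory-like and activated B cells, and the expression of 10 such genes was followed in resting follicular B cells with and without the transcription factor Ets1. The set holds Lgals1, Lgals3 and Lgals9 (galectins), S100a4, S100a6, S100a10 and S100a11 (S100 proteins), Anxa2, Vim and Ahnak, which are 10 of the 23305 genes with a single entry in the expression tables. The genes were chosen by name with their FPKM values in WT and Ets1-/- cells already known, so the difference between the genotypes in these genes, and whether the fit over all genes called it, is given as a description and supports nothing. Each genotype is represented by 2 RNA-seq libraries made from splenic B cells of female mice, sorted with no prior treatment. WT animals were C57BL/6, whereas those lacking Ets1 in every tissue were C57BL/6 x 129Sv, so genotype and strain cannot be told apart in these libraries. The age of the mice and whether animals were pooled are not given in the sources used here. The sort took B220+ CD23-high CD21-low cells without surface CD80 or switched immunoglobulin, that is, it was set to leave out activated and class-switched cells. In fits with all 4 libraries, p-values set the difference between the genotypes against the spread between 2 libraries per genotype. In fits without a library, the spread came only from the genotype that kept both of its libraries. The spread was moderated with the spread in other genes.

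Galectins bind sugars that end in galactose, such as those on CD45 and CD22 of the lymphocyte surface, and galectin-3 differs from the others in joining its sugar-binding part to a tail through which it forms clusters. S100 proteins are small calcium sensors that change the activity of the proteins they bind. S100A10 is the exception, since it does not need calcium, and it is held in a complex with annexin A2 under the plasma membrane, to which the very large protein Ahnak can attach. Vimentin is the main intermediate filament of lymphocytes.

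In all 4 libraries the B cell genes Ms4a1 (the gene of CD20), Cd79a and Fcer2a (the gene of CD23) were abundant, and Ms4a1 lay between 603.5 and 689 FPKM (sequenced fragments scaled to the length of the transcript and to the size of the library). Read numbers are not part of the tables, but steps between low FPKM values gave WT replicate 2 and Ets1-/- replicate 1 about 1.71 and 1.65 times the depth of WT replicate 1, and Ets1-/- replicate 2 about 0.85 times. The FPKM of Ets1 was 231 and 275 in WT and 229 and 229.8 in Ets1-/- cells, and since the allele lacks only an early part of the gene, a value for the whole gene does not check the genotype. The Ets1-/- libraries held more RNA of neutrophil granule genes than the WT libraries, and Ets1-/- replicate 1 more than replicate 2, with sums over 15 such genes of 2635 and 726 FPKM against 120 and 96.4 FPKM in WT. These libraries were kept, and the counts of called genes were also taken without each library in turn.

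The 10 genes did not move in 1 direction, and Lgals3 stood apart from the other 9. On the log2(FPKM + 1) scale, 5 genes had a positive and 5 a negative difference between Ets1-/- and WT, from -0.95 for Vim to 2.80 for Lgals3. The median difference was 0.024, beside -0.015 over all 10949 genes tested. A limma fit across those genes called a gene changed at a log2 fold change of at least 1 in size and a Benjamini-Hochberg adjusted p of 0.05 or less. It called 1 of the 10 genes, Lgals3, higher in Ets1-/- cells, where 0.877% of all genes tested were called higher, and 0 of the 10 lower, where 0.822% were. In 3 genes (Lgals1, Lgals3 and S100a4) both Ets1-/- libraries were above both WT libraries, as in 19.4% of all genes tested. In 3 others (S100a6, Vim and Ahnak) both were below, as in 22.2% of all genes tested, and in the remaining 4 the genotypes overlapped. The name "activation genes" thus describes where these genes are known to be high, and not a shared rise in these cells.

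**Figure D1:**
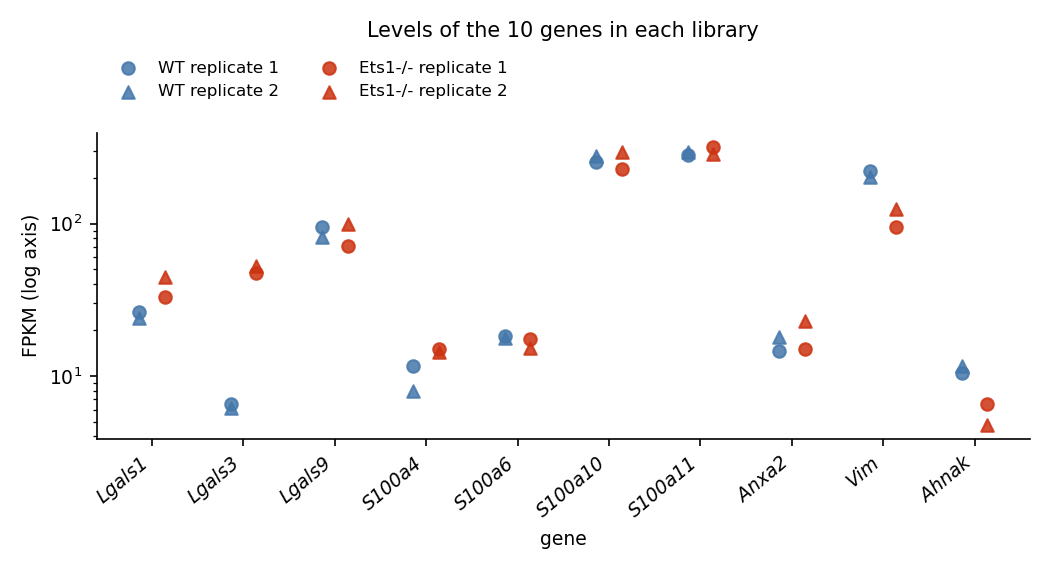
FPKM (log axis) of the 10 genes in each of the 4 libraries, with WT in blue, Ets1-/- in red, replicate 1 as circles and replicate 2 as triangles. Lgals3 moved from 6.12 and 6.51 FPKM in WT to 47.2 and 53.1 FPKM in Ets1-/- cells, while S100a10 and S100a11 stayed above 229 FPKM in all libraries.

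The promoters of the 3 genes with the widest gaps between the genotypes are shown because Ets1 binds DNA at a GGAA core. Each run is the 250 bases before the RefSeq start site, on the strand of the gene and from 5′ to 3′, with matches to GGAA on either strand in capitals (TTCC where it is on the other strand). They lie at chr14:47373610-47373859 (Lgals3), chr2:13574061-13574310 (Vim) and chr19:8989034-8989283 (Ahnak) of GRCm38.p6, a later build than the mm9 of the expression tables.
Lgals3: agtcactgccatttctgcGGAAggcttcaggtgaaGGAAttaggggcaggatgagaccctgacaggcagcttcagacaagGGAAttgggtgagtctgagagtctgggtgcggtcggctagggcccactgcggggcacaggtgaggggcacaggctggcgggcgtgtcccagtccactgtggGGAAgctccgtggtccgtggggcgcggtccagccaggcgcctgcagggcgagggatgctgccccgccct
Vim: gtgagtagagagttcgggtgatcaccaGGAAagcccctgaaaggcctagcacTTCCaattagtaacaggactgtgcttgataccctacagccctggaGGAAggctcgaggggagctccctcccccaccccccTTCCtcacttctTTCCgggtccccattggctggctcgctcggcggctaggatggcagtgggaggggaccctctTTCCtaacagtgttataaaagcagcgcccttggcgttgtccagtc
Ahnak: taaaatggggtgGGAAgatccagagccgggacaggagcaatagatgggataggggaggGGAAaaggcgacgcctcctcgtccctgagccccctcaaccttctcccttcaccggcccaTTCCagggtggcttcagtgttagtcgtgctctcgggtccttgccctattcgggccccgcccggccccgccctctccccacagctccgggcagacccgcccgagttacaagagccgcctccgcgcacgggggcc

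The window of Lgals3 held 4 matches to GGAA, that of Vim 6 and that of Ahnak 3, beside a median of 3 over 32851 promoters of the same length, of which 93.4% held at least 1. The longer form CGGAAG, which contains GGAA, was found once, before Lgals3, with its first base at -233 from the start site, and is present in 13.6% of all promoters. AGGAAG, which also contains GGAA, had 2 matches before Vim, 2 before Lgals9 and 1 before S100a4, and is present in 29.5% of all promoters. Promoter sequence was matched for 8 of the 10 genes, the others being Lgals1 and S100a10. These matches describe letters in the windows and not binding.

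Among the galectins, Lgals3 (chr14:47987426-48005835, mm9, plus strand) was expressed at 6.51 and 6.12 FPKM in the WT libraries, against 47.2 and 53.1 FPKM in the Ets1-/- libraries. The means were 6.32 ± 0.274 (SD, n = 2) and 50.1 ± 4.17 (SD, n = 2), a ratio of 7.93, and the log2 fold change was 2.80 ± 0.14 (SE, standard error of the fit). The genotypes were far apart and the replicates of each close together. Among the tested genes, Lgals3 moved from the 28.3rd and 29.7th percentile of expression in WT to the 83.0th and 84.2nd percentile in Ets1-/- cells. It ranked 24th by log2 fold change among the 96 genes called higher.

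Lgals1 (chr15:78757155-78760895, mm9, plus strand) codes for a galectin that works as a dimer, and had an FPKM of 26.2 and 23.9 in WT and of 32.8 and 44.6 in Ets1-/- cells. Its Ets1-/- values were both higher, but they differed from each other by more than the lower of them differed from the higher WT value. The log2 fold change was 0.59 ± 0.19 (SE). Lgals9 (chr11:78776476-78798448, mm9, minus strand), whose protein carries a pair of sugar-binding domains and is known to dampen B cell receptor signaling, was the most abundant of the 3 galectins in WT, with an FPKM of 94.5 and 81.7. In Ets1-/- cells Lgals9 was at 70.9 and 99.2 FPKM, values on either side of both WT replicates, and its log2 fold change was -0.066 ± 0.21 (SE).

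The make-up of the transcripts of these 3 galectins therefore differed between the genotypes. Other galectins, such as Lgals8 at 39.9 and 41.1 FPKM in WT, lie outside these shares. Lgals3 made up 5.12% and 5.48% of the summed FPKM of the 3 genes in WT and 31.3% and 27.0% in Ets1-/- cells, while Lgals9 went from 74.3% and 73.1% to 47.0% and 50.4%. The share of Lgals1 was between 20.6% and 22.7% in all 4 libraries. Within a library, the ratio of Lgals3 to Lgals1 was 0.248 and 0.256 in WT and 1.44 and 1.19 in Ets1-/- cells, so the order of these galectins was turned. Such ratios within a library do not depend on the scaling between libraries.

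The S100 genes fell into a low and a high pair. S100a10 (chr3:93359002-93368565, mm9, plus strand), the partner of annexin A2, had an FPKM of 256 and 279 in WT and of 229 and 296 in Ets1-/- cells. The Ets1-/- replicates of S100a10 lay outside the WT range on both sides, with a log2 fold change of -0.035 ± 0.19 (SE). S100a11 (chr3:93324410-93330209, mm9, plus strand), a binding partner of annexin A1, was at 282 and 294 FPKM in WT and 322 and 289 FPKM in Ets1-/- cells, with a log2 fold change of 0.082 ± 0.16 (SE). In every library both genes were above the 96th percentile of the tested genes.

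S100a4 (chr3:90407692-90409967, mm9, plus strand) codes for a protein that binds non-muscle myosin. It had an FPKM of 11.6 and 7.90 in WT and of 15.1 and 14.4 in Ets1-/- cells. Both Ets1-/- values were higher, and the WT replicates were further apart than the Ets1-/- replicates, with a log2 fold change of 0.57 ± 0.21 (SE). S100a6 (chr3:90416816-90418336, mm9, plus strand), also called calcyclin, was at 18.3 and 17.6 FPKM in WT and at 17.4 and 15.3 FPKM in Ets1-/- cells. The gap between the genotypes in S100a6 was smaller than the distance between the Ets1-/- replicates, and its log2 fold change was -0.13 ± 0.14 (SE).

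S100a4 and S100a6 are 6.85 kb apart on chromosome 3, in a cluster of S100 genes that also holds S100a8 and S100a9, the genes of the neutrophil protein calprotectin. The neighbours differed widely. S100a8 (chr3:90472993-90473956, mm9) had an FPKM of 43.9 and 39.2 in WT and of 1003 and 254 in Ets1-/- cells, a log2 difference of 3.57 ± 0.64 (SE), and its adjusted p of 0.0767 in the limma fit missed the threshold. S100a9 was at 51.3 and 39.0 FPKM in WT and 913 and 245 FPKM in Ets1-/- cells, and its adjusted p in limma was 0.0809. Without Ets1-/- replicate 1 the log2 difference of S100a8 was 2.59, and without Ets1-/- replicate 2 it was 4.56. That of S100a9 was 4.32 without Ets1-/- replicate 2. Such fits leave out the gap between the Ets1-/- replicates, so whether they pass the threshold decides nothing. S100a5, which lies between S100a4 and S100a6, was listed at 0 in all 4 libraries.

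**Figure D2:**
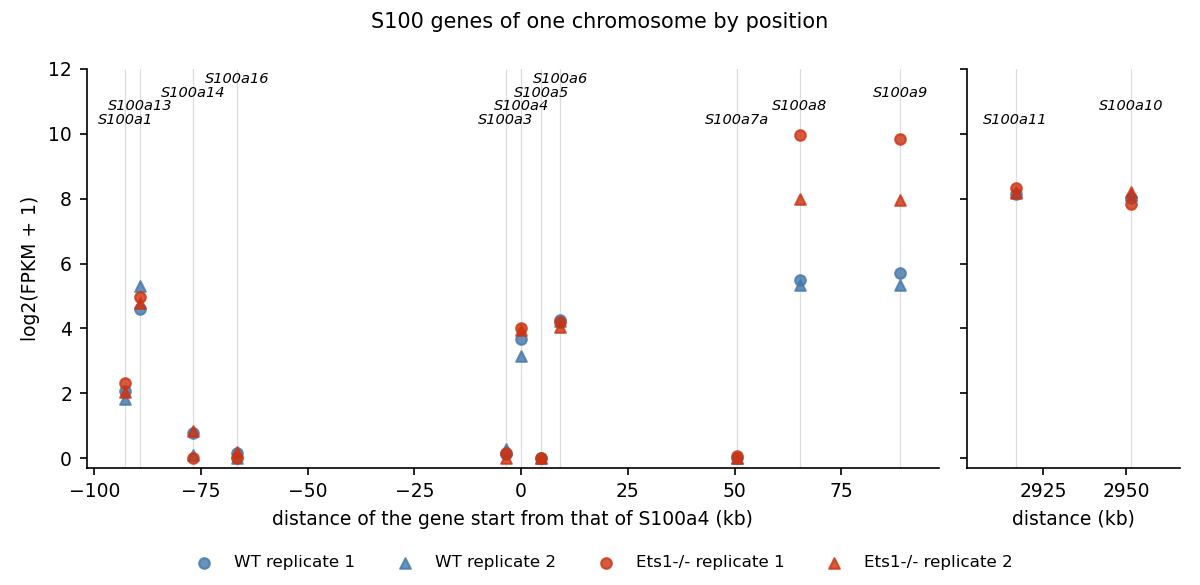
Expression of the S100 genes of chromosome 3, as log2(FPKM + 1) in each library, against the distance of the gene start from that of S100a4 in kb, with S100a11 and S100a10 in a second panel because of their distance. The Ets1-/- libraries (red) are above the WT libraries (blue) at S100a8 and S100a9, where Ets1-/- replicate 1 (circle) has 1003 and 913 FPKM, and close to them at S100a6, S100a10 and S100a11.

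Anxa2 (chr9:69301427-69339602, mm9, plus strand) binds membrane lipids when calcium rises. It was at 14.6 and 18.1 FPKM in WT and at 15.1 and 22.8 FPKM in Ets1-/- cells, so the genotypes overlapped, with a log2 fold change of 0.18 ± 0.24 (SE). Its gene shares its place with a processed transcript on the opposite strand, whose reads cannot be told apart from its own without strand. A miRNA gene on the same strand also overlaps it. Among the 10 genes Anxa2 alone lies on the chromosome of Ets1, 36.7 Mb away. S100a10 was expressed far above its partner, with a ratio of S100a10 to Anxa2 of 17.5 and 15.4 in WT and of 15.2 and 13 in Ets1-/- cells.

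Vim and Ahnak had the widest differences in the other direction. Vim (chr2:13495554-13504453, mm9, plus strand) was measured at an FPKM of 221 and 203 in WT and of 94.99 and 125 in Ets1-/- cells. The WT mean of 212 ± 12.4 (SD, n = 2) was 1.92 times the Ets1-/- mean of 110.2 ± 21.5 (SD, n = 2), and the log2 fold change was -0.95 ± 0.19 (SE). Ahnak (chr19:9063750-9151409, mm9, plus strand) was at 10.4 and 11.5 FPKM in WT and at 6.54 and 4.75 FPKM in Ets1-/- cells, a WT to Ets1-/- ratio of 1.94 and a log2 fold change of -0.86 ± 0.18 (SE). The genotypes did not overlap in either gene, and neither was called. The exons of Ahnak cover 18810 bases and those of S100a4 587 bases, so that at a like FPKM Ahnak rests on many more fragments.

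T cells also express Vim and Ahnak. Of 10 T cell markers, Thy1 was called lower, going from 17.4 and 16.2 FPKM in WT to 3.38 and 3.39 FPKM in Ets1-/- cells (adjusted p = 0.00658 from limma), and the other 9 were not called. Without WT replicate 1 Thy1 missed the threshold (limma, adjusted p = 0.0547). Thy1 lies 11.3 Mb from Ets1 on the same chromosome, and for its level too strain and genotype cannot be told apart. The invariant chain gene Cd3e was at 7.62 and 6.67 FPKM in WT and 7.58 and 7.74 FPKM in Ets1-/- cells. The sum over the 10 markers was 159 and 130 FPKM in WT and 121 and 158 FPKM in Ets1-/- cells, so it overlapped, and no marker was at 0. The largest differences after Thy1 were those of Cd247 and Cd3g, with log2 fold changes of 1.09 ± 0.26 (SE) and 0.54 ± 0.21 (SE), and the most abundant marker, Lck, was at 49.4 and 40.4 FPKM in WT and 27.2 and 40.04 FPKM in Ets1-/- cells. In bulk libraries, fewer cells of a type and less RNA per cell cannot be told apart, and the part of T cells in the levels of Vim and Ahnak was not tested.

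Beyond the 10 genes, the families and their partners held no difference that passed the test with all 4 libraries. The lists of other galectins, S100 genes, annexins, intermediate filaments, galectin ligands and glycan enzymes, and partner proteins named 72 genes, of which 71 were in the tables and 43 were tested. Of these 43 genes, limma called 0 higher and 0 lower, and 11 had an unadjusted p under 0.05, a level reached by 13.3% of all genes tested. Calls of S100a8 and S100a9 in fits without an Ets1-/- library rest on the spread of the WT libraries alone.

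Most of the other annexins had lower values in Ets1-/- cells, though none passed the test. Of 8 tested, 5 had both Ets1-/- libraries below both WT libraries, as did 22.2% of all genes tested. Limma called 0 of the 8, and 5 had an unadjusted p under 0.05, as did 13.3% of all genes tested. Those with such a p were Anxa4, Anxa5, Anxa6 and Anxa7, which were lower in Ets1-/- cells, and Anxa3, which was higher. Anxa6, the most abundant of them, was at 129.9 and 123 FPKM in WT and 75.6 and 90.6 FPKM in Ets1-/- cells, a log2 fold change of -0.61 ± 0.16 (SE). Anxa4 was at 7.67 and 8.12 FPKM in WT and 4.74 and 4.14 FPKM in Ets1-/- cells, with a log2 fold change of -0.71 ± 0.15 (SE; limma, adjusted p = 0.106). Anxa1, the annexin through which glucocorticoids limit inflammation and which myeloid cells express strongly, had the widest spread, from 16.1 and 9.84 FPKM in WT to 41.6 and 16.1 FPKM in Ets1-/- cells (log2 fold change 0.99 ± 0.48, SE), with replicate 1 above replicate 2 in both genotypes. Anxa3 also had a positive difference, 0.97 ± 0.35 (SE), from values of 0.809 and 0.154 FPKM in WT and 2.71 and 1.15 FPKM in Ets1-/- cells.

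Of the other 7 galectins 3 were tested and 0 were called, and 0 had an unadjusted p under 0.05 in limma. Lgals8, a galectin that marks damaged endosomes, was at 39.9 and 41.1 FPKM in WT and 67.6 and 45.4 FPKM in Ets1-/- cells. Lgals4 and Lgals6 are near-identical copies between which reads may be split, and their log2 fold changes of -0.15 ± 0.23 (SE) and 0.50 ± 0.42 (SE) are uncertain for that reason. Of the 12 other S100 genes 4 were tested, and apart from S100a8 and S100a9 these were S100a1 and S100a13, with log2 fold changes of 0.23 ± 0.18 (SE) and -0.077 ± 0.26 (SE). Of 14 other filament and linker genes 5 were tested and 0 called, among them Lmnb2 at 0.25 ± 0.18 (SE), Plec at -0.24 ± 0.13 (SE) and Macf1 at -0.16 ± 0.25 (SE), and 0 had an unadjusted p under 0.05 in limma.

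Genes for galectin ligands and for the enzymes that build their sugars gave 0 calls among 14 tested. In limma 2 had an unadjusted p under 0.05, beside 13.3% of all genes tested. The 2 were Lgals3bp, a secreted protein that binds galectin-3, and Mgat4b, an enzyme that adds branches to N-glycans. Lgals3bp was at 12.6 and 9.62 FPKM in WT and 5.14 and 7.12 FPKM in Ets1-/- cells (log2 fold change -0.77 ± 0.21, SE), the opposite direction to Lgals3. Mgat4b was at 1.98 and 1.64 FPKM in WT and 0.696 and 0.867 FPKM in Ets1-/- cells. Its WT to Ets1-/- ratio of means was 2.32, and its log2 fold change was -0.66 ± 0.17 (SE). Gcnt1, which starts the branched O-glycans of activated lymphocytes, had a log2 fold change of 0.62 ± 0.26 (SE). Of 11 tested partners of S100 proteins, annexin A2 and Ahnak, 0 were called. An unadjusted p under 0.05 in limma was found for 2 of them, beside 13.3% of all genes tested. Plaur, the urokinase receptor, was at 83.3 and 94.9 FPKM in WT and 54.6 and 58.6 FPKM in Ets1-/- cells, and Capn2, a calcium-dependent protease, at 11.4 and 10.8 FPKM in WT and 7.02 and 7.24 FPKM in Ets1-/- cells.

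**Figure D3:**
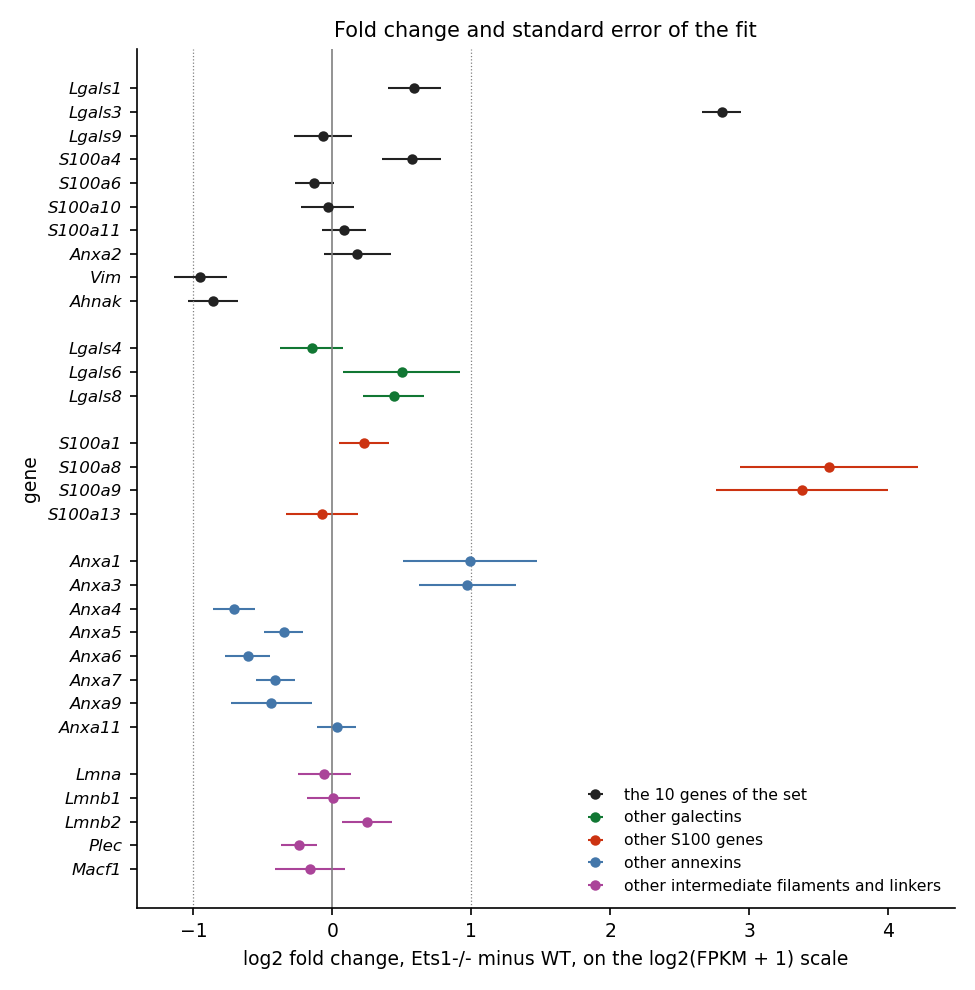
Log2 fold change (Ets1-/- minus WT, on the log2(FPKM + 1) scale) with the standard error of the limma fit as bars, for the 10 genes and for the tested members of 4 related lists, with dotted lines at a 2-fold change. Lgals3 at 2.80 has a narrow bar, S100a8 at 3.57 and S100a9 at 3.38 have wide bars, and 5 of the 8 other annexins lie left of 0, with Anxa1 at 0.99 and Anxa3 at 0.97 to the right.

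Other genes of B-1, memory and activated B cells were followed beside the set. Of 11 B-1 and age-associated B cell markers 1 was called higher and 0 lower, where 0.877% and 0.822% of all genes tested were. This was Plscr1 (chr9:92144895-92166813, mm9), a lipid scramblase induced by interferon. It was at 3.44 and 3.98 FPKM in WT and 11.3 and 12.9 FPKM in Ets1-/- cells. The log2 difference was 1.48 ± 0.15 (SE), with an adjusted p of 0.0212 in the limma fit. Plscr1 lies on the chromosome of Ets1, and for its level too strain and genotype cannot be told apart. Plscr1 was not called when any of the 4 libraries was left out (limma, adjusted p between 0.0737 and 0.175). Itgam, the CD11b chain found on B-1 and myeloid cells, was at 2.37 and 1.56 FPKM in WT and 6.78 and 6.01 FPKM in Ets1-/- cells (adjusted p = 0.0507 from limma), and Zbtb32 differed by 1.19 on the log2 scale (adjusted p = 0.0893 from limma). Cd5 and Cd9 gave log2 fold changes of -0.15 and -0.12 with overlapping genotypes. Of the 11 markers, 6 had a positive and 5 a negative log2 fold change. In 5 both Ets1-/- libraries were above both WT libraries and in 3 below, as in 19.4% and 22.2% of all genes tested. The 3 lower ones were Spn (-0.71 ± 0.22, SE), Ahr (-0.78 ± 0.17, SE) and Tbx21 (-0.41 ± 0.18, SE). Their WT means were 1.73, 3.26 and 1.44 times the Ets1-/- means. Ahr was low, at 1.35 and 1.685 FPKM in WT and 0.516 and 0.415 FPKM in Ets1-/- cells. An unadjusted p under 0.05 in limma was reached by 7 of the 11, beside 13.3% of all genes tested.

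Of 18 tested memory and activation markers limma called 0, with 5 at an unadjusted p under 0.05, beside 13.3% of all genes tested. The log2 fold change was positive in 9 and negative in 9, with a median of -0.002. In 4 (Itgb1, Itgb7, Capg and Nt5e) both Ets1-/- libraries were above both WT libraries, as in 19.4% of all genes tested. In 6 both were below, as in 22.2%. Itgb1 had a log2 fold change of 0.60 ± 0.15 (SE). Crip1, a small LIM protein of memory lymphocytes, was at 421 and 521 FPKM in WT and 263 and 178 FPKM in Ets1-/- cells, a log2 fold change of -1.11 ± 0.25 (SE; limma, adjusted p = 0.134), the same direction as Vim and Ahnak. Pdcd1lg2, the gene of the PD-1 ligand on memory B cells, had a log2 fold change of -0.99 ± 0.17 (SE; limma, adjusted p = 0.0758). The early activation gene Cd69 was at 58.3 and 162 FPKM in WT and 293 and 115 FPKM in Ets1-/- cells, so that replicates differed within each genotype by more than the genotype means. Cd80, whose product was used to gate the cells, was under 1 FPKM in all 4 libraries.

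The replicates of the 10 genes behaved differently from those of the neutrophil granule genes, a list that also holds S100a8 and S100a9. Camp, the gene of the antimicrobial peptide cathelicidin, was at 4.40 and 4.34 FPKM in WT and at 224 and 69.2 FPKM in Ets1-/- cells, and Ngp at 5.84 and 5.06 FPKM in WT and 236 and 78.3 FPKM in Ets1-/- cells. Both were called higher, as were Ltf and Fcnb, which makes 4 of 15 granule genes, where 0.877% of all genes tested were called higher. The adjusted p of these 4 lay between 0.0282 and 0.0409 in limma. Of the 15, 14 had an unadjusted p under 0.05 in limma, beside 13.3% of all genes tested. The count of 4 changed to 0 with no filter on low values. It fell without either WT library and rose without either Ets1-/- library. In the latter fits the wide gap between the Ets1-/- replicates no longer entered the spread, so the rise decides nothing. Camp, Ngp and Ltf are also on the chromosome of Ets1, between 77.2 and 78.4 Mb from it. In Ets1-/- cells replicate 1 was above replicate 2 in 15 of the 15 genes, at least 2-fold in 14 of them, and by a median of 1.39 on the log2(FPKM + 1) scale (range 0.69 to 1.98).

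For the 10 genes the same difference ranged from -0.57 (Anxa2) to 0.39 (Ahnak), with a median of -0.27. Replicate 1 was the higher in 4 genes, as in 45.5% of all genes tested, and replicate 2 in 6. In 0 of the 10 were the Ets1-/- replicates 2-fold apart in either direction. Over all genes tested the median was -0.041, with 5th and 95th percentiles of -0.48 and 0.78. At least 2-fold higher in replicate 1 were 4.96% of genes, and the other direction was not counted. Lgals3, with a difference of -0.17, was higher in the Ets1-/- replicate with fewer granule transcripts, as were 5936 of the 10949 genes tested. The ratio of Lgals3 to Camp was 0.210 in Ets1-/- replicate 1 and 0.767 in replicate 2. With a single difference per genotype these comparisons have no test.

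**Figure D4:**
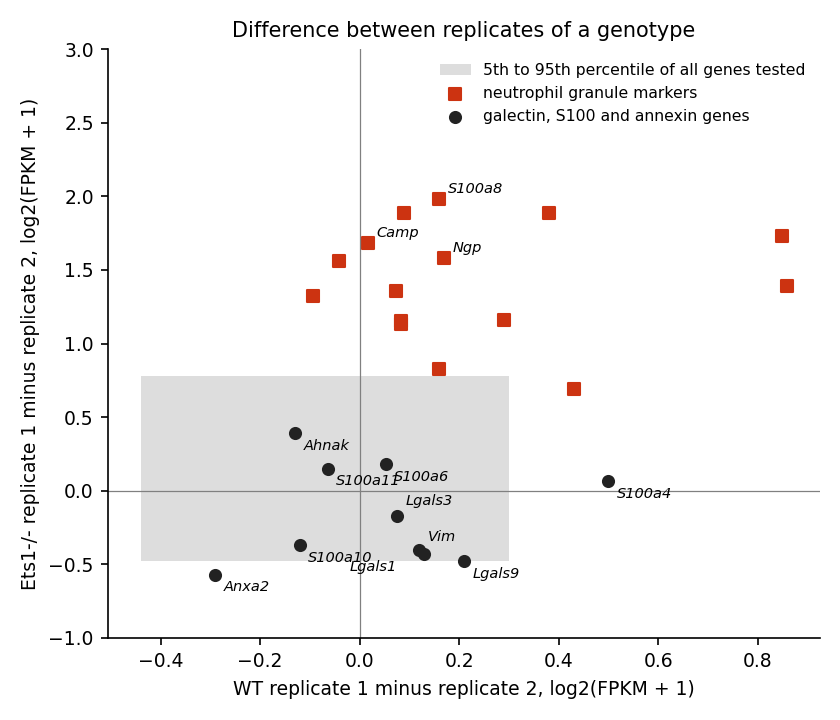
Difference between replicate 1 and replicate 2 on the log2(FPKM + 1) scale in WT (horizontal axis) and in Ets1-/- cells (vertical axis) for the 10 genes (black circles) and 15 neutrophil granule genes (red squares), with the 5th to 95th percentile of all genes tested in grey. On the vertical axis the granule genes lie between 0.69 and 1.98 and the 10 genes between -0.57 and 0.39.

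Galectin-3 is also a classic product of macrophages. Of 9 tested monocyte and macrophage markers limma called 1, Emr1, a surface receptor used to mark macrophages, which was at 2.35 and 2.63 FPKM in WT and 23.5 and 37.2 FPKM in Ets1-/- cells (log2 fold change 3.13 ± 0.24, SE; limma, adjusted p = 0.00969). It moved with Lgals3 in that both Ets1-/- libraries were higher and replicate 2 was above replicate 1. Csf1r, the receptor that defines the lineage, was at 2.35 and 0.999 FPKM in WT and 1.86 and 0.876 FPKM in Ets1-/- cells, and the complement gene C1qb at 4.55 and 1.56 FPKM in WT and 5.81 and 2.50 FPKM in Ets1-/- cells, both higher in replicate 1 of each genotype. Lyz2, the most abundant marker, was at 42.2 and 18.0 FPKM in WT and 102 and 45.7 FPKM in Ets1-/- cells (adjusted p = 0.407 from limma). The sum over the 12 markers was 68.6 and 33.1 FPKM in WT and 155 and 97.6 FPKM in Ets1-/- cells, so both Ets1-/- sums were above both WT sums, while 3 of the markers were under 1 FPKM in all libraries and none was at 0 in all libraries. Without Lyz2 and Emr1, left out after their values were seen, the sum over the other 10 markers was 24.1 and 12.55 FPKM in WT. In Ets1-/- cells it was 29.5 and 14.6 FPKM, and the genotypes overlapped. Lyz2 and Emr1 were the 2 tested markers with both Ets1-/- libraries above both WT libraries. The overlap of the rest was therefore largely set by that choice, and the reduced sum decides nothing. The part of such cells in the level of Lgals3 was not tested.

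**Figure D5:**
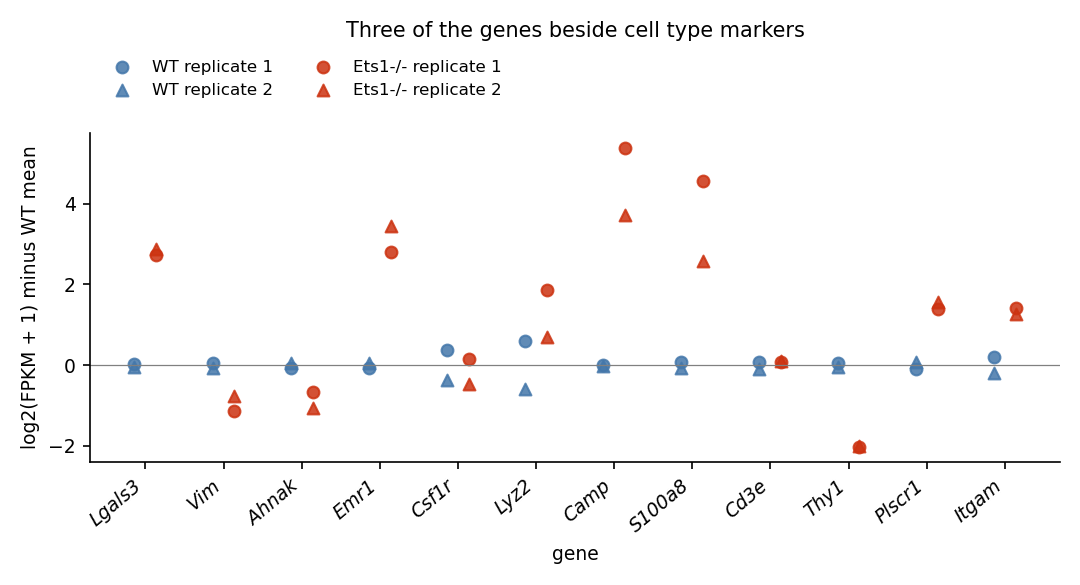
Difference of each library from the WT mean on the log2(FPKM + 1) scale for Lgals3, Vim and Ahnak beside markers of macrophages (Emr1, Csf1r, Lyz2), neutrophils (Camp, S100a8), T cells (Cd3e, Thy1) and B-1 cells (Plscr1, Itgam), with WT in blue, Ets1-/- in red, replicate 1 as circles and replicate 2 as triangles. Camp and S100a8 are spread between the Ets1-/- replicates (224 against 69.2 FPKM for Camp), Lgals3 and Emr1 are higher in Ets1-/- replicate 2 than in replicate 1, and Csf1r overlaps between the genotypes. Spn, Ahr and Tbx21 of the B-1 and age-associated list, which are not drawn, were lower in both Ets1-/- libraries.

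Averaged over the 10 genes, the log2(FPKM + 1) values centred on each gene's mean were -0.085 and -0.13 in WT and 0.028 and 0.19 in Ets1-/- cells, a profile much flatter than that of Lgals3. Among the 5 other genes nearest to it over the 4 libraries were Ubqln1, Coa5, Cdk5 and Lrrc61, at Euclidean distances between 0.0098 and 0.024, and their log2 fold changes lay between 0.21 and 0.24. The average therefore does not describe any of the genes that differed most.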

How the data were processed

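Gene expression was measured by RNA-seq in follicular B cells of 2 WT and 2 Ets1-/- samples, biological replicates by the methods, grouped by the genotype in the labels. Per the labels and the methods, the authors aligned reads of TruSeq RNA libraries, whose strand is not stated, to mm9 with TopHat2 2.0.13 and estimated expression with Cuffdiff. They deposited 1 table of FPKM values per library, which carries no read counts; the annotation, the Cuffdiff version and any scaling between libraries are not given in the sources used here. Of 23309 entries 4 with a repeated symbol were left out.

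Values were compared as log2(FPKM + 1) by limma (version 3.58.1, under R 4.3.3, trended eBayes, 2 residual and 3.1 prior degrees of freedom, all 4 libraries) over the 10949 genes that averaged 1 FPKM or more in WT or in Ets1-/- cells, with Benjamini-Hochberg adjustment. A gene was called changed at a log2 fold change of at least 1 in size and an adjusted p of 0.05 or less. On this scale the changes of low genes come out too small. Before use, the script was tested on simulated data. Positions are from GENCODE M1 (mm9), and 20978 symbols (90.0%) matched 1 gene. Promoters are from RefSeq (GRCm38.p6). Other values were computed in Python 3.11.15.

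The genes of the set and all lists were chosen with earlier results of these data known. Named were the 10 genes, every called gene of a list, the 3 tested genes of each list with the largest change, the 2 most abundant markers of other cell types, and the 5 genes nearest to the mean profile; others were named after their values were seen, and some genes are not reported here. Alternatives covered the pseudocount, the filter, quantile normalization, robust variance, a replicate block and each library left out.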

Additional observations from a re-analysis of the deposited data

How the results depend on the processing

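Lgals3 was called higher, and no other of the 10 genes was called, under all 12 alternatives, with a log2 fold change between 2.28 and 2.97. The sign was kept under all alternatives in 6 of the 10 genes (Lgals1, Lgals3, S100a4, S100a6, Vim and Ahnak). It changed in Lgals9 (-0.31 to 0.17), S100a10 (-0.22 to 0.15), S100a11 (-0.018 to 0.16) and Anxa2 (-0.10 to 0.46), for which no direction is given. Vim stayed between -1.15 and -0.75 and Ahnak between -1.06 and -0.59.

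The number of genes called over the whole table was 186 as reported, 90 with a pseudocount of 5, 75 with no filter on low values, 106 with a mean FPKM of at least 5, 305 with robust variance, and between 99 and 116 with each library left out in turn. The smaller sets of libraries and the larger or smaller sets of genes tested are part of these alternatives, and for the others the cause was not tested. With the crossed pairing as a block, chosen after seeing the data, 409 genes were called over the whole table and 2 among the 43 family and partner genes. Those 43 genes gave between 0 and 2 calls with each library left out, and each of these calls was S100a8 or S100a9. Leaving out 1 library turned the sign of C1qb (-0.18 and -0.11, highest 0.93), Hba-a2 (-0.45 to 4.20), Igj (-0.44 to 0.10), Lgals4 (-0.45 to 0.16), Lgals6 (-0.013 to 1.01) and Macf1 (-0.48 to 0.17), none of which was called.

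Libraries with the same replicate number deviated from their genotype means with a correlation across genes of -0.21, so the numbers were not taken as pairs. With the replicate block 266 genes were called, 2 of the 43 family and partner genes (S100a8 and S100a9), 12 of the 15 granule genes and 3 of the B-1 and age-associated markers (Plscr1, Itgam and Zbtb32), and Lgals3 alone of the 10 genes.

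Read numbers are not in the tables, so counting error is unknown. A group of 2 libraries gives no test for an outlying sample.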

Other observations

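The genes whose values over the 4 libraries were nearest to those of Lgals3, a comparison made after its values were seen, were Col6a4, Gbp1, Cpne4, Clstn1 and Emr1, at Euclidean distances between 0.17 and 0.49 on the centred log2(FPKM + 1) scale. The first 4 were under 1 FPKM in both WT libraries. Cpne4, a copine, belongs like the annexins to proteins that bind membranes when calcium rises, and it was at 0.0272 and 0.00776 FPKM in WT and 7.76 and 7.07 FPKM in Ets1-/- cells (log2 fold change 3.05 ± 0.15, SE; limma, adjusted p = 0.00254). Gbp1, an interferon-induced GTPase, was at 0.0538 and 0.113 FPKM in WT and 6.49 and 5.94 FPKM in Ets1-/- cells. The likeness describes 4 libraries and was not tested.

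Of 5 tested plasma cell markers 0 were called by limma, with 2 at an unadjusted p under 0.05, beside 13.3% of all genes tested. The most abundant of them, Igj (the joining chain of IgM and IgA), was at 63.6 and 67.2 FPKM in WT and 47.8 and 70.1 FPKM in Ets1-/- cells, and Sdc1, the gene of CD138, at 7.11 and 5.13 FPKM in WT and 9.72 and 19.8 FPKM in Ets1-/- cells. Irf4 had a log2 fold change of -0.85 ± 0.38 (SE). Prdm1 was at 0.580 and 0.672 FPKM in WT and 1.675 and 1.475 FPKM in Ets1-/- cells. Its Ets1-/- mean was 2.52 times its WT mean. With the pseudocount of 1, which makes changes of low genes too small, its log2 fold change was 0.66 ± 0.16 (SE). With a pseudocount of 0.1 it was 1.21, and Prdm1 was not called there either. Of 5 tested erythroid markers 0 were called by limma, with 4 at an unadjusted p under 0.05, beside 13.3% of all genes tested. In 4 of the 5 both Ets1-/- libraries were above both WT libraries, as in 19.4% of all genes tested. The sum over the 7 listed erythroid genes was 7.97 and 6.65 FPKM in WT and 93.9 and 30.4 FPKM in Ets1-/- cells. As in the sum of the granule genes, Ets1-/- replicate 1 was above replicate 2. Hba-a1 and Hbb-b1 had log2 fold changes of 2.82 ± 0.44 (SE) and 2.53 ± 0.45 (SE), and Hba-a2, whose reads may be split with the near-identical Hba-a1, of 1.88 ± 1.49 (SE). Of the stromal and endothelial markers 1 was tested, Pecam1, which B cells also express, at 92.3 and 82.8 FPKM in WT and 67.8 and 86.5 FPKM in Ets1-/- cells, and Cdh5 was under 1 FPKM in all libraries. Of 8 B cell identity markers limma called 0, with 1 at an unadjusted p under 0.05, beside 13.3% of all genes tested. That marker was Cr2, at 102 and 116 FPKM in WT and 65.1 and 30.0 FPKM in Ets1-/- cells.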
